A study of Mus musculus with 10 samples.

Results

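Nicotinamide adenine dinucleotide (NAD) carries electrons between the enzymes that burn fuel and is also consumed as a substrate by signalling enzymes, so cells rebuild it continuously. In brown adipose tissue (BAT), which burns fatty acids and glucose to make heat, most NAD is thought to be recycled from nicotinamide: NAMPT converts nicotinamide to nicotinamide mononucleotide (NMN), NMRK kinases make NMN from nicotinamide riboside, and NMNAT enzymes turn NMN into NAD. NAD kinases add a phosphate to make NADP, NNMT methylates nicotinamide and so removes it from recycling, and CD38, PARPs and sirtuins cleave NAD in the course of their reactions. The transcripts of 10 such genes were described in interscapular BAT (iBAT) of Axl KO and wild-type (WT) mice: Nampt, Nmrk1, Nmnat1 and Nmnat3 for synthesis, Nadk and Nadk2 for phosphorylation, Nnmt for clearance of nicotinamide, and Cd38, Sirt1 and Sirt3 for use of NAD. They are 10 of 41249 counted gene identifiers, and all 10 passed the filter on low counts, a mean above 1 CPM (counts per 1000000). The filter used unscaled library sizes, and the CPM values given below are after TMM scaling of the library sizes. Of the 10 genes, 9 were taken for their function, and Nmnat3 was added because its lower level in Axl KO mice had been seen. Its difference is therefore given below as a description without a test.

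The mice differed in the gene for AXL, a receptor tyrosine kinase, and shared everything else the records name. The Axl KO mice lacked AXL constitutively in the whole body, through a knockout-first cassette (tm1a) derived from ES cell clones, and the WT mice were their littermates from heterozygous breeding on a C57BL/6 background. All were males on a high-fat diet (HFD) with free access to food at room temperature; the sample records give 24 weeks on the diet, begun when mice were 6 to 8 weeks old, and the paper's text gives slightly different figures. The whole depot of each mouse gave 1 library, with 5 Axl KO and 5 WT mice, so a difference in a transcript can come from fewer cells of a type or from less RNA per cell, and the counts cannot tell these apart. The deletion reached every tissue from before birth and was not limited to brown adipocytes.

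Total counts were between 5431014 and 8214841 in Axl KO mice and between 5952427 and 9580215 in WT mice. Axl itself was at 0.437 to 2.01 CPM in Axl KO and at 38.2 to 52.3 CPM in WT mice, a log2 fold change of -4.77 (edgeR quasi-likelihood test, adjusted p = 1.10e-07), in the direction the labels give. All 8 brown adipocyte markers, Ucp1 among them, passed the filter, and their summed level was 8616 to 11679 CPM in Axl KO and 6727 to 8849 CPM in WT mice. All 8 had a higher estimate in Axl KO mice, beside 49.8% of all tested genes, and 4 had an unadjusted p under 0.05 in edgeR. All 7 fibroblast and progenitor markers had a lower estimate (median log2 fold change -0.27), 2 of them at that threshold. Over all tested genes, 4.54% were higher and 3.86% lower at that threshold. The fibroblast and progenitor sum was 318 to 481 CPM in Axl KO and 428 to 591 CPM in WT mice. All 8 skeletal muscle markers had a lower estimate (median -1.05), 0 of them at that threshold. Of 6 endothelial markers 2 had a higher and 4 a lower estimate, 1 of the lower at that threshold. The part of these cell types in the values below was not tested. The 5 white adipocyte markers summed to 190 to 606 CPM in Axl KO and 230.1 to 549 CPM in WT mice, most of it Lep, while Hoxc9 and Tcf21 had no count in any mouse. The libraries differed most in muscle transcripts. The sum of 8 skeletal muscle markers was 20.7 and 4.51 CPM in Axl KO replicates 1 and 2, 542 to 2944 CPM in the other 3 Axl KO mice, and 710 to 3474 CPM in WT mice.

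Between the genotypes, 1 of 13739 tested genes passed an adjusted p of 0.05 in edgeR (0.00728% of those tested), and this gene was Axl. None of the 9 genes chosen by function passed it. At an unadjusted p under 0.05, 1 of the 9 was counted, Nnmt, against 8.4% of all tested genes (4.54% higher and 3.86% lower in Axl KO), and with DESeq2, which called 4 genes in all (0.0169%), the count past the adjusted threshold was also 0. Of the 10 genes, 7 had a higher and 3 a lower mean estimate in Axl KO, beside 49.8% higher among all tested genes. Their median log2 fold change was 0.052, beside -0.00059 over all tested genes. The 3 genes with the lower estimates were Nmnat3, Cd38 and Sirt1. Nmnat3 was chosen for its fall, so this split and this median carry that choice. Without Axl KO replicates 1 and 2, the libraries with almost no muscle transcripts, the log2 fold changes were 0.15 for Nampt, 0.07 for Nmrk1, 0.09 for Nmnat1, 0.08 for Nadk, -0.05 for Nadk2, 0.35 for Nnmt, -0.33 for Cd38, -0.10 for Sirt1 and -0.01 for Sirt3, and these can be set beside the values with all mice given for each gene.

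**Figure D1:**
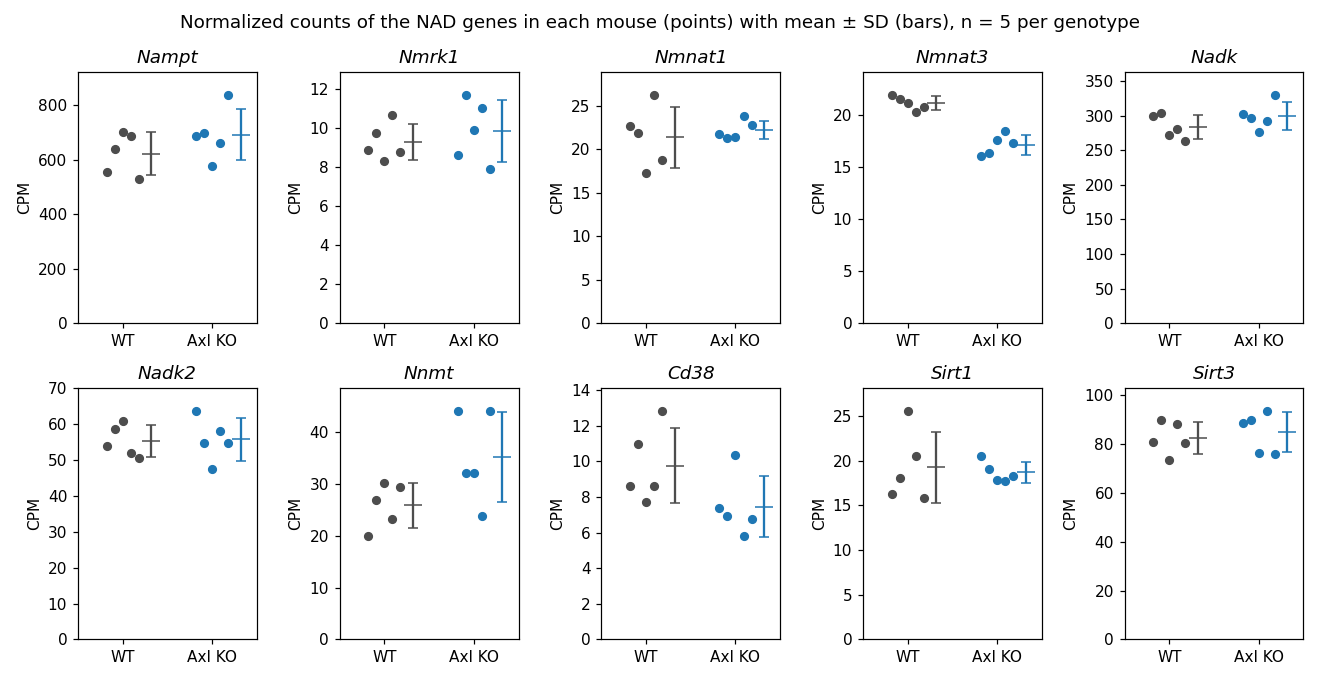
CPM (y axis, from 0) of the 10 NAD genes in each of 5 WT (grey) and 5 Axl KO (blue) mice; points are mice, and the bar beside them is the mean ± SD. The points of the genotypes overlap for 9 genes, and for Nmnat3 the highest Axl KO mouse (18.5 CPM) lies below the lowest WT mouse (20.3 CPM).

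Nampt (ENSMUSG00000020572, GRCm38 chr12:32819545-32853349, plus strand), which encodes the rate-limiting enzyme of the salvage route, was the most abundant of the 10. Axl KO replicates 1 to 5 had 685, 697, 578, 661 and 839 CPM, and WT replicates 1 to 5 had 557, 639, 703, 685 and 529 CPM. Axl KO replicates 1 to 4 lay within the WT range and replicate 5 lay above every WT mouse. The mean was 692 ± 94.2 CPM in Axl KO and 623 ± 77.2 CPM in WT mice (SD, n = 5 each), a log2 fold change of 0.15 with a 95% interval of -0.08 to 0.38 (edgeR adjusted p = 0.698). The interval, from 3987 to 6084 counts per mouse, left room for a level up to 30.2% higher in Axl KO.

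Nmrk1 (ENSMUSG00000037847, chr19:18631950-18652428, plus strand), the nicotinamide riboside kinase expressed in most tissues, was low, with 42 to 92 counts per mouse. It was at 9.85 ± 1.60 CPM in Axl KO and 9.28 ± 0.923 CPM in WT mice, and the Axl KO range of 7.90 to 11.7 CPM enclosed the WT range of 8.32 to 10.7 CPM. Its muscle relative Nmrk2 had 21 counts in all 10 mice together and was not tested.

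The final step to NAD is made by NMNAT1 in the nucleus, NMNAT2 in the cytosol and Golgi and, as generally described, NMNAT3 in mitochondria. Nmnat2, known mainly from neurons, had 19 counts in all 10 mice together. Nmnat1 (ENSMUSG00000028992, chr4:149467572-149485202, minus strand) was at 22.2 ± 1.07 CPM in Axl KO and 21.4 ± 3.51 CPM in WT mice, a log2 fold change of 0.06 (95% interval -0.16 to 0.29). The Axl KO mice lay close together, between 21.3 and 23.9 CPM, inside the WT range of 17.3 to 26.3 CPM.

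Nmnat3 (ENSMUSG00000032456, chr9:98287435-98420438, plus strand) was at 16.0, 16.4, 17.6, 18.5 and 17.3 CPM in Axl KO replicates 1 to 5. In WT replicates 1 to 5 it was at 22.0, 21.6, 21.2, 20.3 and 20.8 CPM. Every Axl KO mouse was below every WT mouse, which 0.619% of all tested genes also showed, and this separation is what the gene was chosen for. The means were 17.2 ± 0.977 and 21.2 ± 0.665 CPM (n = 5 each), a level 18.8% lower in Axl KO on the fitted scale (log2 fold change -0.30). The counts behind these values were 92 to 204 per mouse. The coefficient of variation was 5.69% in Axl KO and 3.14% in WT mice, beside medians over all tested genes of 13.3% and 11.3%. A small spread within the groups is part of the separation the gene was chosen for, so it is not a separate result.

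The Axl KO mice with the lowest Nmnat3, replicates 1 and 2, were also those with almost no muscle transcripts. Without them the log2 fold change of Nmnat3 was -0.25, and with the muscle markers as a covariate it was -0.26. After the genotype means were subtracted, Nmnat3 and the muscle markers had a Pearson r of 0.61 over the 10 mice. This r was 0.73 within Axl KO mice, -0.001 within WT mice and 0.20 without Axl KO replicates 1 and 2. The B cell markers summed to 20.1 to 42.4 CPM in Axl KO and 15.0 to 73.5 CPM in WT mice, nearly all of it Ighm. Each of the other 5 B cell markers was at most 1.31 CPM in every mouse. Here and below, a marker list entered an r as the mean log2 value over its markers, each counted equally, not as its sum. The r of Nmnat3 with the B cell list was 0.73, and markers with few counts weighed as much in it as Ighm. Per kilobase of exon, Nmnat1 was 1.67 ± 0.297 times the level of Nmnat3 in WT and 2.14 ± 0.0824 times in Axl KO mice, a ratio that carries the choice of Nmnat3 with it. Its direction depended on the length used: with the longest transcript, Nmnat1 was at 0.826 ± 0.147 times Nmnat3 in WT and 1.06 ± 0.0408 times in Axl KO mice.

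Neither NAD kinase passed the test between the genotypes. Nadk (ENSMUSG00000029063, chr4:155562378-155591001, plus strand), the cytosolic kinase, was at 277 to 330.5 CPM in Axl KO and 264 to 304 CPM in WT mice, a log2 fold change of 0.08 (95% interval -0.06 to 0.22, edgeR adjusted p = 0.752). Nadk2 (ENSMUSG00000022253, chr15:9071260-9110891, plus strand), the mitochondrial kinase, was at 47.4 to 63.7 CPM in Axl KO and 50.6 to 61.0 CPM in WT mice, a log2 fold change of 0.01 (95% interval -0.17 to 0.19). The sign of the Nadk2 estimate was negative in the fits without Axl KO replicates 1 or 4, or WT replicates 4 or 5. Per kilobase, Nadk exceeded Nadk2 by 7.05 ± 0.573 times in WT and 7.39 ± 0.741 times in Axl KO mice.

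Nnmt (ENSMUSG00000032271, chr9:48591877-48605153, minus strand) encodes nicotinamide N-methyltransferase, which uses S-adenosylmethionine to methylate nicotinamide and is abundant in fat and liver. Axl KO replicates 1 to 5 had 44.1, 32.2, 32.2, 23.9 and 44.0 CPM, and WT replicates 1 to 5 had 19.9, 26.9, 30.2, 23.2 and 29.4 CPM. All Axl KO mice but replicate 4 lay above every WT mouse, and replicate 4 lay low in the WT range. The means were 35.3 ± 8.72 and 25.9 ± 4.32 CPM, or 34.9% higher in Axl KO on the fitted scale with a 95% interval of 5.35 to 72.8%. The log2 fold change was 0.43 (SE 0.16), with an unadjusted p of 0.0215 and an adjusted p of 0.571 in edgeR, so the difference did not pass the threshold over all genes. It stayed positive with each mouse left out, between 0.34 and 0.55. The unadjusted p rose above 0.05 without Axl KO replicates 1 or 5 (log2 fold change 0.34 each), without WT replicate 1 (0.35) and without both low-muscle Axl KO libraries (0.35).

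Nnmt also varied most among mice in the Axl KO group, with a coefficient of variation of 24.7% there and 16.7% in WT mice. The other enzyme class that removes nicotinamide products, aldehyde oxidase, was represented by Aox1, at 196 ± 12.6 CPM in Axl KO and 197 ± 14.7 CPM in WT mice (log2 fold change -0.005, 95% interval -0.15 to 0.14). Aox3 had 28 counts over the 10 mice and Aox4 none.

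Cd38 (ENSMUSG00000029084, chr5:43868553-43912375, plus strand) encodes a membrane enzyme that degrades NAD and NMN and is best known from immune cells. Axl KO replicates 1 to 5 had 7.41, 6.91, 10.4, 5.82 and 6.77 CPM, and WT replicates 1 to 5 had 8.60, 11.0, 7.75, 8.60 and 12.8 CPM. All Axl KO mice but replicate 3 lay below every WT mouse, and replicate 3 lay among the higher WT mice. The means were 7.46 ± 1.73 and 9.76 ± 2.11 CPM, a log2 fold change of -0.38 with a 95% interval of -0.77 to 0.02 (edgeR, unadjusted p = 0.0591, adjusted p = 0.601), from 36 to 104 counts per mouse. With each mouse left out the estimate was between -0.54 (without Axl KO replicate 3) and -0.26 (without WT replicate 5). The unadjusted p was below 0.05 without Axl KO replicate 3 and without WT replicate 3 (log2 fold change -0.45). In these fits the edgeR adjusted p was 0.193 and 0.654. The share of all tested genes under 0.05 in the same fits is not given here.

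The mouse with the highest Cd38 in each genotype was also the one with the highest macrophage transcripts. The 7 macrophage markers, all above the filter, summed to 208 CPM in Axl KO replicate 3 and 194 CPM in WT replicate 5, within ranges of 111 to 208 CPM in Axl KO and 121 to 194 CPM in WT mice. Of these 7, 4 were higher and 3 lower in Axl KO, with a median log2 fold change of 0.018. After the genotype means were subtracted, Cd38 and the macrophage markers had an r of 0.78 and a Spearman rho of 0.77 over 10 mice, and an r of 0.56 without Axl KO replicates 3 and 4. The same mice, Axl KO replicate 3 and WT replicate 5, also had the highest endothelial sums (526 and 603 CPM) and B cell sums (42.4 and 73.5 CPM, nearly all Ighm) of their genotypes. With the endothelial markers Cd38 had an r of 0.75 but a rho of 0.30, and an r of -0.20 without these 2 mice. The part of these cells in the Cd38 values was not tested.

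Sirtuins remove acyl groups from proteins and split NAD to do so. Sirt1 (ENSMUSG00000020063, chr10:63319005-63381704, minus strand), the nuclear deacetylase, was at 20.5, 19.1, 17.8, 17.8 and 18.3 CPM in Axl KO replicates 1 to 5. In WT replicates 1 to 5 it was at 16.2, 18.1, 25.6, 20.5 and 15.9 CPM. The Axl KO values lay inside the WT range, in which replicate 3 was highest. The log2 fold change was -0.04 (95% interval -0.31 to 0.23, edgeR adjusted p = 0.941), and without WT replicate 3 it was 0.08.

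Sirt3 (ENSMUSG00000025486, chr7:140863666-140882309, minus strand), the main mitochondrial deacetylase, was at 76.0 to 93.4 CPM in Axl KO and 73.3 to 89.6 CPM in WT mice, and the log2 fold change was 0.04 (95% interval -0.13 to 0.21, edgeR adjusted p = 0.901). Exons of Sirt1 overlap the antisense gene Gm16145, and exons of Sirt3 overlap Ric8a and Psmd13 on the other strand. Whether the counting used strand is not given in the sources used here, so some of these reads cannot be assigned to 1 gene with certainty.

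The 5 other sirtuins are given to complete the family. Sirt2, a mainly cytosolic deacetylase, was at 63.8 ± 3.73 CPM in Axl KO and 59.1 ± 2.53 CPM in WT mice (log2 fold change 0.11, edgeR adjusted p = 0.625). Sirt4, Sirt5 and Sirt7 had log2 fold changes of 0.03, 0.06 and 0.06, and Sirt6 one of -0.22 at 5.01 ± 1.35 and 5.80 ± 0.593 CPM. Of 7 sirtuins, 5 had a higher and 2 a lower estimate, beside 49.8% higher among all tested genes. At an unadjusted p under 0.05 in edgeR there were 0 of the 7, beside 8.4% of all tested genes.

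**Figure D2:**
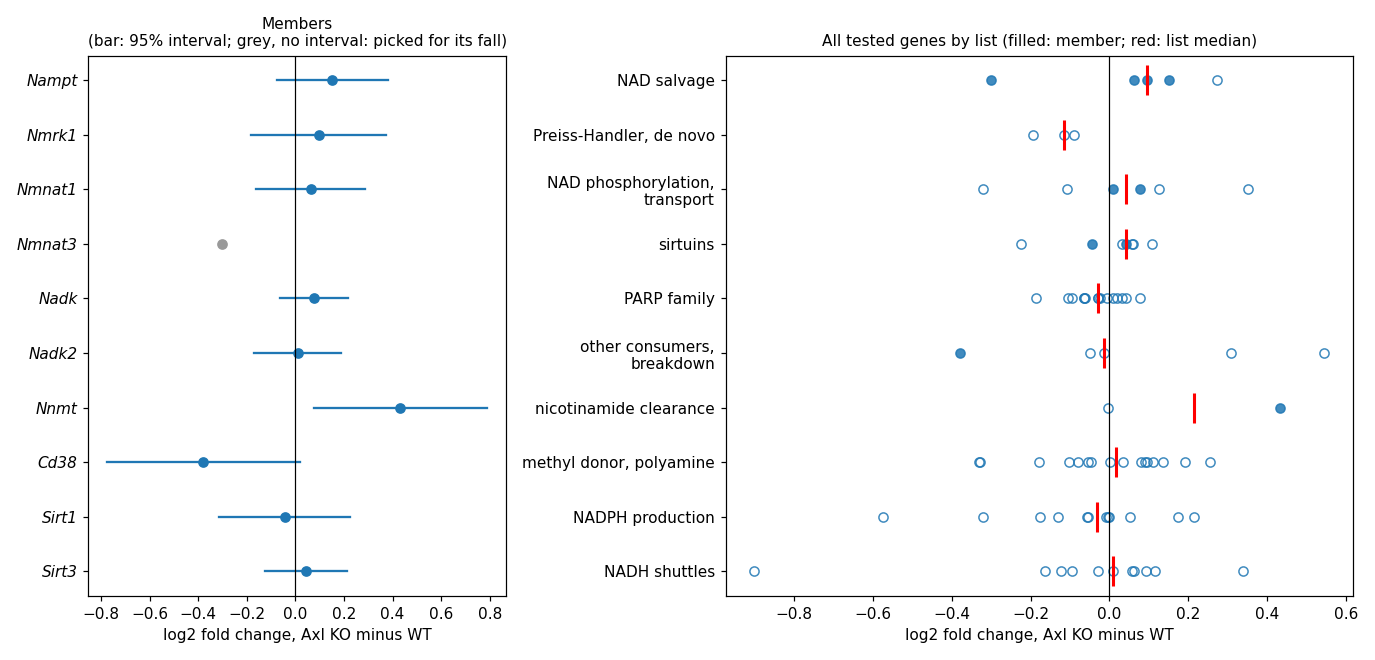
Left, log2 fold change (x axis, Axl KO minus WT) of each of the 10 genes with its 95% interval from edgeR; Nmnat3, in grey, was chosen for its fall and is shown without an interval. Right, the same x axis for every tested gene of 10 NAD-related lists (open circles; filled, the genes of the left panel), with a red mark at each list's median, and of the list medians 9 lie between -0.12 and 0.096 and that of nicotinamide clearance, from 2 genes, at 0.21.

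The genes around these 10 were described from 10 lists of NAD synthesis, use and related reactions, which hold 98 genes with the 10 included; 81 were tested. Their median log2 fold change was -0.0036, with 39 higher and 42 lower, and 0 passed the adjusted threshold in edgeR. Apart from Nmnat3, 80 were tested, and 3 of these (3.75%, beside 8.4% of all tested genes) had an unadjusted p under 0.05, Nnmt and Pnp higher and Ahcyl2 lower. None of the 80 had groups that did not overlap, beside 1.35% of all tested genes.

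In the salvage list, 5 of 7 genes were tested, 4 with a higher estimate and Nmnat3 with a lower one. Pnp, purine nucleoside phosphorylase, which releases nicotinamide from nicotinamide riboside, was at 98.9, 111, 93.1, 103 and 132 CPM in Axl KO replicates 1 to 5. In WT replicates 1 to 5 it was at 74.8, 94.3, 98.0, 96.5 and 81.0 CPM. All Axl KO mice but replicate 3 lay above every WT mouse, and replicate 3 lay below 3 of the WT mice. Its log2 fold change was 0.27 (SE 0.10, edgeR unadjusted p = 0.0195, adjusted p = 0.571), and between 0.19 and 0.32 with each mouse left out. The unadjusted p was just above 0.05 without Axl KO replicate 5 (log2 fold change 0.19) and without WT replicate 1 (0.22).

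Of the routes that do not start from nicotinamide, the one from tryptophan had few counts. Of 11 genes listed for the routes from nicotinic acid (Preiss-Handler) and from tryptophan (de novo), 3 were tested, and all 3 had a lower estimate (median log2 fold change -0.12). Naprt, which starts the nicotinic acid route, was at 23.7 ± 4.45 CPM in Axl KO and 27.0 ± 1.13 CPM in WT mice (log2 fold change -0.19, edgeR adjusted p = 0.657). Among the tryptophan route's genes, Qprt had 11, Ido1 9, Haao 5, Kynu 4, Tdo2 1 and Ido2 0 counts over all 10 mice. Kmo had the most of those not tested, 42. Acmsd, on the same list although its enzyme draws an intermediate away from NAD, had 1 count.

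The list of NAD phosphorylation, dephosphorylation and transport held 6 tested genes, with a median log2 fold change of 0.043. Its most abundant member per kilobase was Slc25a51, the carrier that brings NAD into mitochondria, at 676 ± 90.2 CPM in Axl KO and 619 ± 40.9 CPM in WT mice (log2 fold change 0.13, edgeR adjusted p = 0.701). Nnt encodes the transhydrogenase of the inner mitochondrial membrane and is mutated in the C57BL/6J substrain. The paper's reporting summary lists C57BL6/N mice, and its account of the Axl KO breeding names only C57Bl6. The Nnt allele of these mice was not tested. Nnt was at 5.55, 7.82, 9.68, 8.44 and 15.1 CPM in Axl KO replicates 1 to 5. In WT replicates 1 to 5 it was at 13.9, 6.14, 15.7, 16.7 and 5.91 CPM. The 4 mice above 13 CPM, Axl KO replicate 5 and WT replicates 1, 3 and 4, were the 4 with the most muscle transcripts, 2758 to 3474 CPM.

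After the genotype means were subtracted, Nnt and the muscle markers had an r of 0.68 over the 10 mice, of 0.81 within Axl KO and of 0.98 within WT mice. Slc25a12, an aspartate-glutamate carrier of the malate-aspartate shuttle that was named after its values were seen, followed the same mice. It was at 3.39, 3.46, 12.2, 6.55 and 15.8 CPM in Axl KO replicates 1 to 5 and at 18.6, 8.04, 25.2, 17.2 and 8.31 CPM in WT replicates 1 to 5. Its log2 fold change of -0.90 (edgeR adjusted p = 0.601) was the lowest of the 81 tested genes. The part of muscle in the differences of Nnt and Slc25a12 was not tested.

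Among the enzymes that use NAD, all 15 PARP genes were tested, 5 with a higher and 10 with a lower estimate (median log2 fold change -0.029, range -0.19 to 0.077). Tiparp, a mono-ADP-ribosyltransferase and the most abundant of them per kilobase, was at 117 ± 12.9 CPM in Axl KO and 125 ± 27.5 CPM in WT mice. In the list of other NAD consumers 5 of 7 genes were tested, with a median of -0.013. Nudt12, a hydrolase that removes NAD caps from RNA, was the most abundant of these per kilobase and was at 112 ± 5.85 and 113 ± 3.07 CPM. Bst1, the relative of Cd38, had 26 counts over the 10 mice, and Sarm1 57.

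The methyl donor and polyamine cycle, which supplies the S-adenosylmethionine that NNMT uses, had 16 tested genes, 9 with a higher and 7 with a lower estimate (median log2 fold change 0.018). Ahcyl2, a relative of the hydrolase of S-adenosylhomocysteine, was at 145, 187, 168, 168 and 116 CPM in Axl KO replicates 1 to 5 and at 191, 191, 233, 195 and 175 CPM in WT replicates 1 to 5. All Axl KO mice but replicate 2 lay below every WT mouse, and the log2 fold change was -0.33 (SE 0.12, edgeR unadjusted p = 0.0154, adjusted p = 0.571), or -0.39 without Axl KO replicates 1 and 2. Ahcyl1, the most abundant of the list per kilobase, was at 665 ± 68.1 and 687 ± 52.3 CPM.

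Of 12 tested NADPH-producing enzymes, 3 had a higher and 9 a lower estimate (median log2 fold change -0.030). Idh2, the mitochondrial isocitrate dehydrogenase and the most abundant of them per kilobase, was at 662 ± 76.9 CPM in Axl KO and 748 ± 49.0 CPM in WT mice (log2 fold change -0.18, edgeR adjusted p = 0.599). The 11 tested genes of the NADH shuttles had a median of 0.0094. Their most abundant transcript, Gpd1 of the glycerol phosphate shuttle, was at 8920 ± 1229 CPM in Axl KO and 8536 ± 1088 CPM in WT mice, and was the highest per kilobase of all NAD-related genes listed.

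Levels can be compared between genes only per length, here as CPM per kilobase of the union of a gene's exons. In WT mice Nampt was highest, at 123 ± 15.3 CPM per kilobase (SD, n = 5), followed by Nadk at 75.8 ± 4.60. Nnmt (16.5 ± 2.74), Sirt3 (13.8 ± 1.11) and Nadk2 (10.8 ± 0.863) formed the middle, and Nmnat1 was at 7.04 ± 1.16. Nmnat3 (4.23 ± 0.133), Sirt1 (3.61 ± 0.745), Nmrk1 (2.52 ± 0.250) and Cd38 (2.51 ± 0.542) were lowest. Neighbours whose WT mice overlapped were Nnmt with Sirt3, Nmnat3 with Sirt1, and Nmrk1 with Cd38; the other neighbours did not overlap. In Axl KO mice the same neighbours overlapped and the order was the same, except that Nmnat3, at 3.43 ± 0.195 CPM per kilobase, stood after Sirt1, at 3.51 ± 0.216. Nampt, the first step of salvage from nicotinamide, exceeded Nmrk1 by 49.2 ± 7.12 times per kilobase in WT and 53.0 ± 15.1 times in Axl KO mice, and by 28.9 ± 4.18 and 31.1 ± 8.86 times with the length of the longest transcript.

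**Figure D3:**
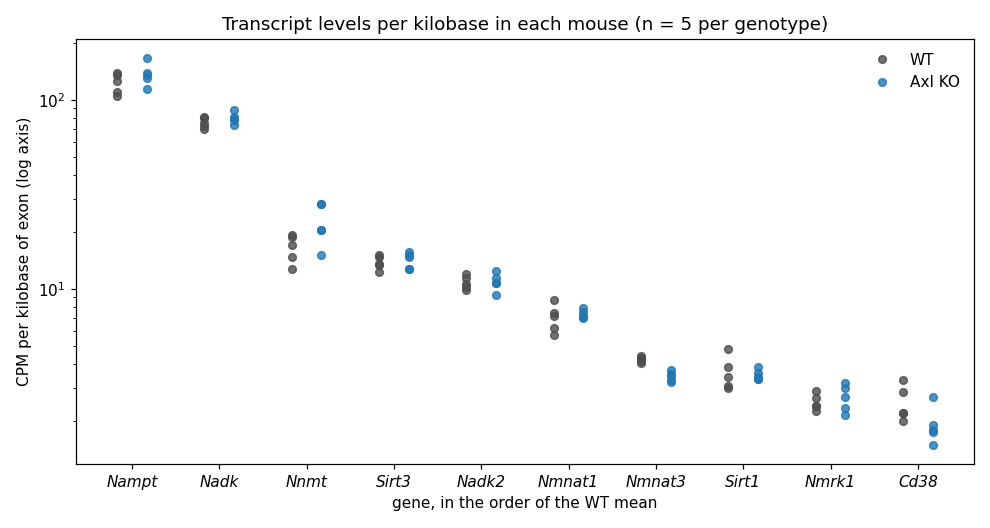
CPM per kilobase of exon (y axis, log scale) of the 10 NAD genes in each WT (grey) and Axl KO (blue) mouse, with genes on the x axis in the order of the WT mean. The WT means run from 123 for Nampt to 2.51 for Cd38, and the points of Nnmt and Sirt3, of Nmnat3 and Sirt1, and of Nmrk1 and Cd38 overlap.

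Beyond the genotypes, the 10 genes did not vary as a block from mouse to mouse. Co-variation was described with log2(CPM + 0.5) values after each genotype's mean was subtracted, over 10 mice that share a tissue and a library preparation. It covered 105 pairs of genes and 132 pairs of a gene with a marker list. A marker list entered as the mean of these values over its markers, each counted equally, and not as its summed CPM. Nampt went with Pnp, the other abundant gene of nicotinamide recycling, with an r of 0.93 and a rho of 0.95, an r of 0.95 within Axl KO and 0.92 within WT mice, and 0.88 without Axl KO replicates 3 and 5. Nampt went with Noct, a phosphatase of NADP, with an r of 0.74, and against Aox1 with an r of -0.84 (-0.85 without the same mice). Nadk went with the mitochondrial carrier Slc25a51 (r 0.87, and 0.65 without Axl KO replicate 5 and WT replicate 2).

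Nmrk1 and Nnmt went in opposite directions (r -0.70, rho -0.78). Sirt1 went with Nampt at an r of 0.63, which was 0.90 within WT and 0.17 within Axl KO mice. Nmnat1 and Nmnat3 had an r of 0.098. With 10 mice and this many pairs, these values describe the libraries and carry no test.

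**Figure D4:**
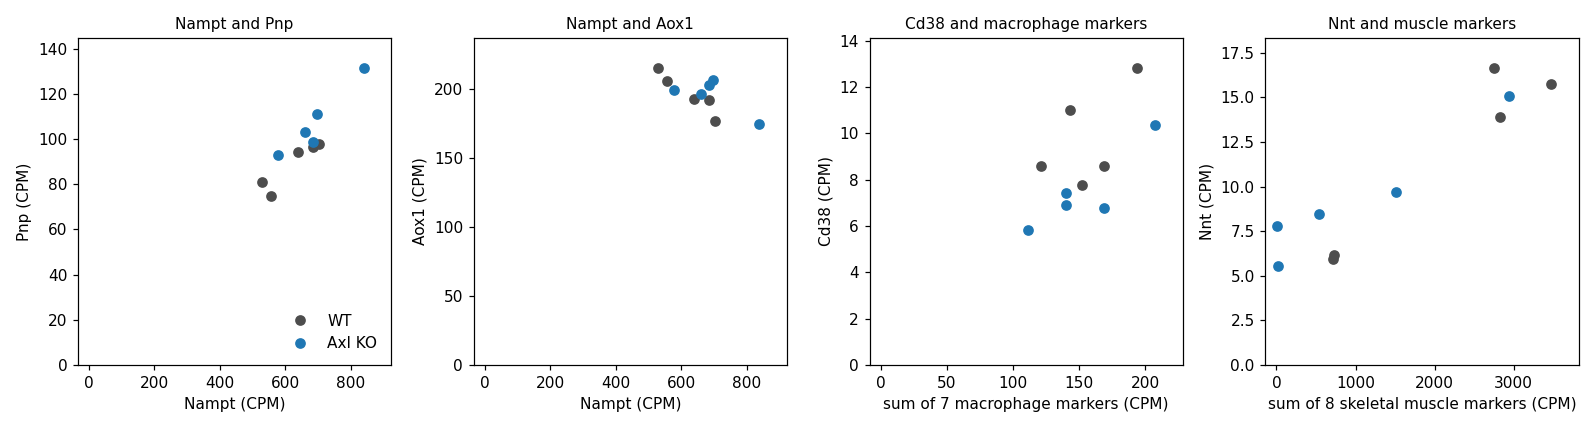
Each point is 1 mouse (grey, WT; blue, Axl KO), with CPM on both axes. Pnp rises with Nampt and Aox1 falls with it (r 0.93 and -0.84 after subtracting the genotype means), Cd38 is highest in the mouse of each genotype with the highest sum of 7 macrophage markers, and Nnt is above 13 CPM in the 4 mice with the highest sum of 8 skeletal muscle markers.

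The marker lists moved with some of these genes. Nampt and Nadk2 were lower where the endothelial markers were higher (r -0.81 and -0.76, and -0.63 and -0.49 without WT replicate 5 and Axl KO replicate 3), and Nadk2 was lower where the erythroid markers were higher (r -0.79). Sirt3 went with the general adipocyte markers (r 0.74). Nadk and Nampt had r values of 0.68 and 0.63 with the brown adipocyte markers, both above 0.97 within Axl KO mice and 0.43 and 0.34 within WT mice. Without Axl KO replicate 5, the mouse with the highest brown adipocyte sum, and WT replicate 2, these r values were 0.30 and 0.46.

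The genes whose pattern was most like that of 4 of the 10 were looked for among 10373 genes with a mean above 5 CPM. For Nampt they were Gstz1 (r 0.96), Bcat2 (0.96), Cox17 (0.95), Ei24 and Gm21987 (both 0.94). For Nnmt they were Egfr (r 0.91), Gulp1, Cnpy4, Creld2 and Efr3a (0.88). For Cd38 they were Dse (r 0.94), Fscn1, Hoxa7, Ninl and Lgals3 (0.92). For Nmnat3 they were Htt (r 0.95), Ncoa1, Ruvbl2, Lig4 and Usp22 (0.89). These are the highest r values of many, over 10 mice.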

How the data were processed

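RNA of whole iBAT from 5 Axl KO and 5 WT mice on HFD was sequenced from TruSeq libraries. The authors deposited raw counts per Ensembl gene, 1 table per mouse, without normalization or pooling. Their paper names Trim Galore and hisat2 on GRCm38 and rRNA-depleted RNA; the submitters' processing notes and labels name Trimmomatic 0.36, STAR 2.6.1c, GRCm38.p5 and polyA RNA. The counting tool, its strand setting and its handling of reads shared by similar genes are not given in the sources used here.

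Identifiers were named with GENCODE M21 (41163 of 41249 matched). The members and lists were chosen with earlier results of these data known. The 13739 genes with a mean above 1 CPM were compared in R 4.3.3 with edgeR 4.0.16 (TMM, quasi-likelihood test, no covariate, two-sided), with Benjamini-Hochberg adjustment over all of them, and an adjusted p under 0.05 was the threshold. Lists were compiled from general knowledge and described by counts and medians. Named were the 10 genes, Axl, genes of each other NAD-related list with an unadjusted p under 0.05 or the highest CPM per kilobase, Nnt, and the 5 closest genes in pattern to Nampt, Nnmt, Cd38 and Nmnat3; Slc25a12, Noct, the other sirtuins and genes named for low counts were chosen after their values were seen. Alternatives were DESeq2 1.42.0, RLE size factors, filterByExpr, no filter, a robust fit, each mouse left out, a replicate block, only protein-coding genes, the muscle markers as a covariate and the longest transcript as length; DESeq2 on the genes above 1 CPM and leaving out Axl KO replicates 1 and 2 together were added after seeing the data. The procedure was tested on simulated data.

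The tables of any pair of mice differed by more than sampling noise (chi-square per degree of freedom at least 5.47), so no table repeated another's library. That each table is a separate mouse rests on the sample records and the paper, not on this comparison. Each mouse was taken as 1 replicate. Total counts of 5431014 to 9580215 per mouse limit the precision of genes with under about 100 counts, such as Nmrk1 and Cd38.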

Additional observations from a re-analysis of the deposited data

Results flagged for a closer look

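In 28 groups of 5 mice (Axl, the 10 genes, Pnp, Ahcyl2 and Slc25a51 in each genotype), 2 held a mouse whose gap to its nearest neighbour exceeded 0.71 of the group's range; chance alone gives about 1 in 20 groups. Axl in Axl KO replicate 4 was at 0.437 CPM, with the nearest other mouse at 1.69 CPM. Slc25a51 in WT replicate 2 was at 689 CPM, with the nearest at 612 CPM.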

How the results depend on the processing

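Under all 20 alternatives, 0 of the 9 genes chosen by function passed the adjusted threshold, and the median log2 fold change of the tested NAD genes was between -0.033 and 0.015. The number of all genes called was 1 in every edgeR fit, 4 with DESeq2 and 9 with DESeq2 on the genes above 1 CPM; the cause was not tested. In the main fit, 1 of the 9 genes (Nnmt) had an unadjusted p under 0.05, beside 8.4% of all tested genes. The count was 2 without a filter, in the robust fit, and without Axl KO replicate 3 or WT replicate 3, each time with Cd38 added. It was 0 with the muscle covariate, without Axl KO replicates 1 or 5 or WT replicate 1, and without Axl KO replicates 1 and 2 together. The share of all genes in these other fits is not given here, so these counts are not a result about the 9 genes. With each mouse left out, log2 fold changes were between 0.073 and 0.21 for Nampt, 0.028 and 0.16 for Nmrk1, -0.0064 and 0.14 for Nmnat1, -0.33 and -0.28 for Nmnat3, 0.038 and 0.10 for Nadk, -0.042 and 0.064 for Nadk2, -0.11 and 0.085 for Sirt1, and 0.0019 and 0.079 for Sirt3. The sign turned for Nadk2 and Sirt3 with the muscle covariate (-0.046 and -0.042) and without Axl KO replicates 1 and 2 (-0.051 and -0.0072); all these estimates lay within the intervals given. With the length of the longest transcript in place of the union of exons, the WT means per kilobase were 25.7 for Sirt3, 24.9 for Nnmt, 13.4 for Nadk2, 90.1 for Nadk, 9.77 for Nmnat3 and 4.78 for Nmrk1, which put Sirt3 above Nnmt, Nmnat3 above Nmnat1 and Nmrk1 above Sirt1.

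The replicate numbers were not shown to pair the mice: deviations of same-numbered mice correlated at -0.18, 0.37, 0.042, 0.049 and -0.36. With the number as a block, 1 gene was called, 0 of the 9 passed, and the log2 fold changes of Nnmt, Cd38 and Nmnat3 were 0.42, -0.37 and -0.30.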
